A study of Mus musculus with 4 samples.

Results

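The transcripts described here are those of 10 genes that write, hold or remove repressive chromatin and DNA marks: Ezh2, Ezh1, Eed, Suz12, Dnmt1, Dnmt3a, Dnmt3b, Tet1, Tet2 and Tet3. They were chosen by symbol, and all 10 were found among the 46517 genes of the deposited table. The readout was RNA sequencing of invariant natural killer T (iNKT) cells, T cells with a semi-invariant receptor for lipids on CD1d, sorted from the thymus of C57BL/6J mice at stage 1, a gate without CD24, NK1.1 or T-bet. The comparison asked what loss of PRMT5, an arginine methyltransferase, does to the transcripts of these cells. The 2 Control libraries carry a genotype entry that names both Prmt5 flox/D and Prmt5 flox/+ Cd4-Cre, without assigning either to a library, and the 2 Prmt5 KO libraries are Prmt5 flox/D Cd4-Cre. Cd4-Cre acts in developing T cells at large, so deletion is not particular to iNKT cells. The labels do not define the allele D, give no ages, and do not state that each library is a mouse of its own. The p-values therefore reflect variation from library to library, part of which may be technical. In bulk RNA, fewer cells of a type and less RNA per cell cannot be told apart.

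Polycomb repressive complex 2 (PRC2) trimethylates lysine 27 of histone H3 through EZH2 or EZH1, and needs EED and SUZ12 for stability and activity. DNMT1 copies cytosine methylation to the new DNA strand, DNMT3A and DNMT3B set it anew, and the TET enzymes oxidise 5-methylcytosine on the way to its removal. In mouse thymus, loss of Ezh2 is known to expand PLZF-expressing iNKT cells, and joint loss of Tet2 and Tet3 to expand iNKT cells of the NKT17 kind.

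Reads on annotated exons numbered 4600799 to 13240293 per library, with Prmt5 KO 1 the deepest, and 1 read was worth 0.0676 to 0.234 CPM, the TMM-scaled level used throughout. Prmt5 itself was covered by 555 and 425 reads in the Control libraries and by 1279 and 604 in the Prmt5 KO libraries, a log2 fold change of 0.05 ± 0.32 (SE; adjusted p = 0.992, edgeR's quasi-likelihood test). The table holds no reads per exon, so this gene-level value does not check the deletion, and groups are named as labelled. T cell and iNKT markers were present: the 13 listed genes summed to 7295 to 8758 CPM in Control and 5546 to 8728 in Prmt5 KO, Zbtb16 and the invariant segment Trav11 among them. Summed markers of double-positive thymocytes were at 50.5 to 57.4 and 26.3 to 63.6 CPM, of B cells at 0 to 0.177 and 0.338 to 4.32, and of myeloid cells at 1.41 to 1.94 and 8.06 to 14.4. NK cell markers summed to 13.1 to 37.8 and 4.06 to 18.1 CPM, gamma-delta T cell markers to 54.8 to 108 and 16.9 to 24.1, and epithelial markers to 0 to 2.47 and 5.61 to 7.86. Most of the gamma-delta sum was Sox13, at 108 and 52.5 CPM in Control and 21.3 and 14.5 in Prmt5 KO. Trdc was not lower in Prmt5 KO, at 0.177 and 2.34 CPM in Control against 2.84 and 2.36. Most of the double-positive sum was Cd1d1, which was lower in both Prmt5 KO libraries than in both Control libraries, as was Dntt. Cd24a, the gene of CD24, went the other way, at 0 CPM in both Control libraries and at 5.55 and 2.55 in Prmt5 KO. So did Cd8a, at 0 and 1.87 CPM in Control against 7.91 and 4.13, while Cd8b1 overlapped. Among the defining genes, Ms4a1, Lyz2, Adgre1, Ncr1 and Krt5 were at 0 in all 4 libraries. Other listed markers had reads. Itgam stood at 1.77 and 0 CPM in Control and at 12.4 and 7.07 in Prmt5 KO. Epcam stood at 2.47 and 0 against 5.01 and 7.86, and Klrb1c at 36.8 and 13.1 against 2.91 and 13.8. Cd79b was at 0 in both Control libraries and at 0.135 and 3.93 in Prmt5 KO. The part of cells other than iNKT cells in the results was not tested.

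Each of the 10 genes was matched by symbol in the RefSeq promoter table (assembly GRCm38.p6, the build that mm10 names), which lists 14 starts for them, each as 250 bases before and 50 from the start. Proliferating cells use E2F factors to drive replication genes, so the promoters were searched on both strands for the E2F letters TTTCCCGC, TTTGGCGC, TTTCGCGC and TTTGCCGC, found in 1.07%, 0.514%, 0.323% and 0.441% of all 32851 promoters in the table. Any of them occurred in 2.26% of all promoters and in 3 of the 14 of the members, namely those of Ezh2, Suz12 and 1 of the 3 starts of Dnmt1. These 3 are shown with the matched letters in capitals, together with Dnmt3b, the gene with the largest difference between groups, which had no match.
Ezh2, chr6:47594981-47595280, minus strand: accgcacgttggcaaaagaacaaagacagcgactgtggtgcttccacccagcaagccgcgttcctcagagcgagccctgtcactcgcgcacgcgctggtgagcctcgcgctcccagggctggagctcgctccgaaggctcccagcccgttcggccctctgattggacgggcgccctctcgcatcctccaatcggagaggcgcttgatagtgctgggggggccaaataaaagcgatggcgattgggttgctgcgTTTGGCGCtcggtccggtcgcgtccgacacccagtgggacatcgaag
Suz12, chr11:79992856-79993155, plus strand: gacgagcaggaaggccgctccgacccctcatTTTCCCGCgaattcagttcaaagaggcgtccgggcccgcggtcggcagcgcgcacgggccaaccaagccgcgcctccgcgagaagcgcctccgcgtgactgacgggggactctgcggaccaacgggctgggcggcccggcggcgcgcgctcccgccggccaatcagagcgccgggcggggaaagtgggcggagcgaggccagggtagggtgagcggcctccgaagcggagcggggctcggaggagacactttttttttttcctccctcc
Dnmt1, chr9:20952574-20952873, minus strand: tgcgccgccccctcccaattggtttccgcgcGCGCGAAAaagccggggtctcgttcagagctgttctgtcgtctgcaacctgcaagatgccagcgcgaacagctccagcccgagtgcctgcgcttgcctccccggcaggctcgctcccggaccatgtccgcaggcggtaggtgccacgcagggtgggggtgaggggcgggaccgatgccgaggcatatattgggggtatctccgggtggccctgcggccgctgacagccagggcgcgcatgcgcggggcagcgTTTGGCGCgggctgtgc
Dnmt3b, chr2:153649199-153649498, plus strand: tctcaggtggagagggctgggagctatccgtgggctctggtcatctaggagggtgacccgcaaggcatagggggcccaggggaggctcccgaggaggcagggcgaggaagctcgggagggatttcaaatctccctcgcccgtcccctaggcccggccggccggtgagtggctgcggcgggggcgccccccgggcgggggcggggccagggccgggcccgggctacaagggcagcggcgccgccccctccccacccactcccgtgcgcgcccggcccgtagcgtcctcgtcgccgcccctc
The Ezh2 match begins 3 bases after the start, the Suz12 match 219 bases before it (position -219), and those of Dnmt1 at positions 33 and -219. CpG dinucleotides, the substrate of the DNMT and TET enzymes, numbered 31 in the promoter of Ezh2, 41 in that of Suz12, 33 in this promoter of Dnmt1 and 30 in that of Dnmt3b, against a median of 7 over all promoters. Among the members the count went from 2, at another start of Dnmt1, to 57 in Tet2, where 99.8% of all promoters had fewer. Each run of E2F letters contains CG. The 2.26% is a share over all promoters and not over promoters with a like CpG count, so it is not a matched background. A match of letters is a description and not a binding site.

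In exon reads none of the 10 genes differed between the groups past the threshold. All 10 passed the filter on low counts, and 0 had an adjusted p under 0.05, where the test called 0.00928% of the 10775 genes tested. At an unadjusted p under 0.05 the count was 0 of 10 against 8.58% of genes. DESeq2 and limma-voom, which called 1.56% and 0.121% of genes, also called 0 of 10, as did a fit that blocks on the replicate number (3.36% of genes). The median log2 fold change (Prmt5 KO over Control) of the members was -0.13, with 4 of 10 above 0, beside a median of -0.00028 and 5384 of 10775, or 50%, above 0 over all tested genes. That median was 0.05 without Control 1, -0.15 without Control 2, -0.48 without Prmt5 KO 1 and 0.15 without Prmt5 KO 2. The groups did not overlap for 1 member with higher values in Prmt5 KO, Dnmt3a, and 2 with lower values, Ezh2 and Dnmt3b; over all tested genes this held for 20.5% and 19%.

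**Figure D1:**
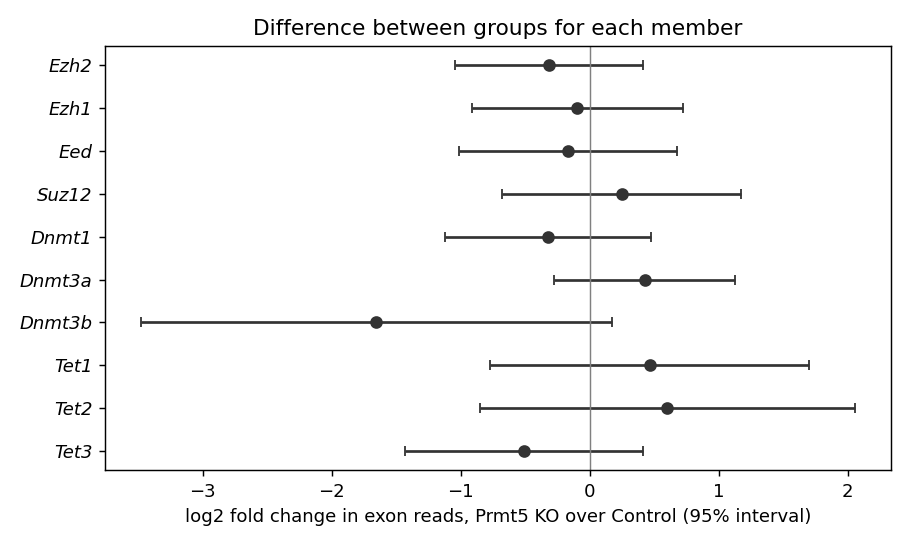
Log2 fold change in exon reads, Prmt5 KO over Control (horizontal axis), for each of the 10 genes, with its 95% interval from edgeR's quasi-likelihood fit to 2 libraries per group. Each interval includes 0; Dnmt3b lies farthest from it, at -1.65 with an interval from -3.48 to 0.17.

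Compared per kilobase of annotated exon, Dnmt1 was the most abundant of the 10 transcripts in each library and Tet2 or, in Prmt5 KO 2, Dnmt3b the least abundant. Control levels were 65.6 ± 15.8 CPM per kb for Dnmt1 (SD, n = 2 here and below), 24.6 ± 1.08 for Eed, 16.02 ± 7.51 for Suz12, 15.3 ± 0.224 for Ezh2 and 13.1 ± 2.16 for Ezh1. They were followed by Dnmt3a at 9.36 ± 1.36, Dnmt3b at 5.89 ± 1.08, Tet3 at 4.74 ± 1.75, Tet1 at 1.20 ± 0.509 and Tet2 at 0.997 ± 0.476 CPM per kb. Suz12 was above Ezh2 and Ezh1 in Control 1 and below both in Control 2, so its place among them was not fixed. The Control values of Dnmt3b and Tet3 overlapped across libraries, as did those of Tet1 and Tet2. Within each Control library, however, Ezh2 was above Ezh1, Dnmt3b above Tet3 and Tet1 above Tet2, differences that were not tested. In Prmt5 KO the level of Dnmt3a, at 12.6 ± 1.07 CPM per kb, lay beside those of Ezh2 (12.3 ± 2.45) and Ezh1 (12.2 ± 4.29), and that of Dnmt3b, at 1.82 ± 1.98, lay beside Tet1 (1.65 ± 0.572) and Tet2 (1.502 ± 0.638). The exon length is the union over annotated transcripts, 16642 bases for Dnmt3a against 2218 for Eed, so the per-length level of a gene with many isoforms is understated.

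**Figure D2:**
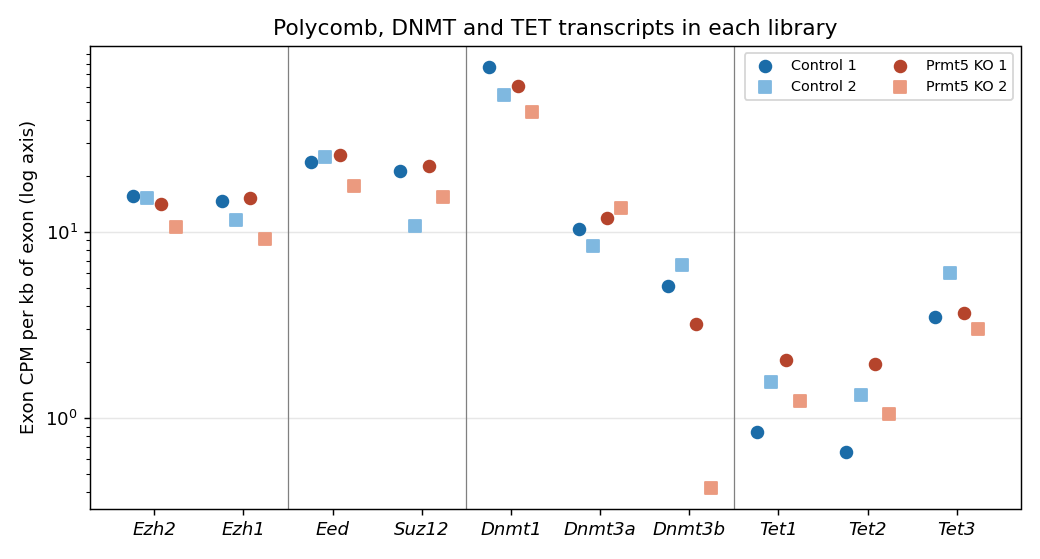
Exon CPM per kb of annotated exon (vertical log axis) for each gene in each of the 4 libraries; circles are replicate 1 and squares replicate 2. Dnmt1 stands between 43.9 and 76.8 in the 4 libraries, the TET genes stay under 6, and Dnmt3b reaches its lowest value, 0.423, in Prmt5 KO 2.

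Ezh2, the main PRC2 methyltransferase of dividing cells (chromosome 6, 47530139 to 47595341 on mm10, minus strand), had 586 exon reads in Control 1, 433 in Control 2, 1385 in Prmt5 KO 1 and 359 in Prmt5 KO 2. Scaled, these were 104 and 101 CPM in Control and 93.7 and 70.5 in Prmt5 KO. Both Prmt5 KO libraries were below both Control libraries, but the log2 fold change was small, at -0.32 ± 0.32 (SE; 95% interval -1.05 to 0.41, adjusted p = 0.868). Leaving out Prmt5 KO 1 gave -0.53, and leaving out Prmt5 KO 2 gave -0.13. Ezh1, the paralog used more by resting cells (chromosome 11, 101191115 to 101226463, minus strand), stood at 109 and 85.7 CPM in Control and at 113 and 68.2 CPM in Prmt5 KO. The groups overlapped, and the log2 fold change of -0.10 ± 0.36 (interval -0.91 to 0.72, adjusted p = 0.980) turned to 0.12 without Control 1 and to 0.23 without Prmt5 KO 2.

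Eed, which binds the trimethyl mark and activates the enzyme (chromosome 7, 89954656 to 89980983, minus strand), stood at 52.8 and 56.2 CPM in Control and at 57.4 and 39.3 CPM in Prmt5 KO. Suz12, the scaffold of the complex (chromosome 11, 79993106 to 80034123, plus strand), stood at 105 and 52.9 CPM in Control and at 112 and 76.0 CPM in Prmt5 KO. In both genes the groups overlapped, and the Prmt5 KO libraries lay farther from each other than the group means did. A gene annotated across Eed, Gm26529, had 1, 1, 20 and 0 exon reads in the same order, and other genes overlapping a member had 0. The log2 fold changes were -0.17 ± 0.37 (interval -1.01 to 0.67, adjusted p = 0.961) for Eed and 0.25 ± 0.41 (interval -0.68 to 1.17, adjusted p = 0.939) for Suz12. Without Prmt5 KO 2 that of Eed was 0.08, and that of Suz12 was -0.17 without Control 2 and -0.06 without Prmt5 KO 1. Of the exon reads of Suz12, 92.9% to 96.4% were unique, the smallest share among the members in each library, so a part of its count can come from copies elsewhere.

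Dnmt1, the maintenance methyltransferase (chromosome 9, 20907206 to 20959888, minus strand), was covered by 2738 and 1465 reads in the Control libraries and by 5681 and 1409 in the Prmt5 KO libraries, or 484 and 343 against 384 and 277 CPM. Prmt5 KO 1 lay between the Control libraries. The log2 fold change was -0.32 ± 0.35 (interval -1.12 to 0.48, adjusted p = 0.887), and leaving out Control 1 or Prmt5 KO 2 left it at -0.02 or -0.10.

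Dnmt3a, a de novo methyltransferase (chromosome 12, 3806007 to 3914443, plus strand), was the only member whose Prmt5 KO values were both above both Control values. It stood at 172 and 140 CPM in Control and at 197 and 222 CPM in Prmt5 KO, from 972, 597, 2912 and 1131 exon reads. The log2 fold change was 0.43 ± 0.31 (interval -0.28 to 1.13, adjusted p = 0.789) and stayed positive, at 0.28 to 0.62, with each library left out in turn.

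Dnmt3b, the other de novo enzyme (chromosome 2, 153649450 to 153687730, plus strand), had 148 and 145 exon reads in Control, 243 in Prmt5 KO 1 and 11 in Prmt5 KO 2. At 26.2 and 34.0 CPM in Control against 16.4 and 2.16 in Prmt5 KO, both Prmt5 KO libraries were lower, 1 of them by far more than the other. The log2 fold change was -1.65 ± 0.80 (interval -3.48 to 0.17), with an unadjusted p of 0.0705 and an adjusted p of 0.616. Leaving out Prmt5 KO 1 made it -3.77 (adjusted p = 0.105) and leaving out Prmt5 KO 2 made it -0.86, so its size depends on which of these libraries is kept. Reads that cross an exon junction made up 75 of 148, 96 of 145 and 141 of 243 exon reads in the first 3 libraries. In Prmt5 KO 2 they made up 0 of 11, which allows a share of up to 27.3%, where the 95% Clopper-Pearson intervals of the other libraries began at 42.3% to 57.9%. That library also had 0 intron reads for the gene. Such intervals and limits cover counting error only, since reads amplified by PCR without molecular identifiers are not independent molecules.

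Per kb, the TET genes were the 3 least abundant members in Control. Tet1 (chromosome 10, 62804570 to 62899118, minus strand) stood at 12.4 and 23.0 CPM in Control and at 30.2 and 18.3 CPM in Prmt5 KO. Tet2 (chromosome 3, 133463679 to 133545139, minus strand) stood at 7.78 and 15.7 CPM in Control and at 23.0 and 12.4 CPM in Prmt5 KO. Tet3 (chromosome 6, 83362373 to 83459084, minus strand) stood at 42.1 and 71.7 CPM in Control and at 43.8 and 36.0 CPM in Prmt5 KO. In all 3 the groups overlapped, with Control 1 lowest for Tet1 and Tet2 and Control 2 highest for Tet3. Tet1 had a log2 fold change of 0.46 ± 0.55 (interval -0.77 to 1.70, adjusted p = 0.902) and Tet2 one of 0.60 ± 0.64 (interval -0.85 to 2.05, adjusted p = 0.880). Without Prmt5 KO 1 these were 0.07 and 0.10, and without Control 1 they were 0.12 and 0.21. Without Control 2 they were 0.97 and 1.19, and without Prmt5 KO 2 0.78 and 0.98. For Tet3 it was -0.51 ± 0.41 (interval -1.43 to 0.41, adjusted p = 0.816), or -0.08 without Control 2 and -0.81 without Control 1. Tet2 had the fewest Control reads of the 10, at 44 and 67, and its interval is wide, as the libraries within each group lay far apart.

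Ratios between members of a family within a library do not depend on scaling between libraries. The pairs within each family were picked after the values were seen, so the ratios are given as a description with no test. Some pairs share a gene, Dnmt3a or Tet3, so their ratios are not separate observations. How often ratios of other gene pairs separate the groups was not computed. Dnmt3a over Dnmt1, in exon reads per kb, had log2 ratios of -2.89 and -2.69 in Control and -2.36 and -1.72 in Prmt5 KO. The ratio was less negative in both Prmt5 KO libraries, by 0.75 on the mean log2 ratio, or by 0.43 without Prmt5 KO 2. Dnmt1 stayed above Dnmt3a per kb in all 4 libraries. Counted in junction reads alone the same ratio was -2.02 and -1.77 in Control and -1.45 and -0.75 in Prmt5 KO. Dnmt3b over Dnmt3a was at -1.01 and -0.33 in Control and at -1.88 and -4.92 in Prmt5 KO, lower in both, with a mean difference of -2.73, or -1.21 without Prmt5 KO 2 and -4.25 without Prmt5 KO 1.

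Tet1 over Tet3 was at -2.05 and -1.93 in Control and -0.83 and -1.27 in Prmt5 KO, and Tet2 over Tet3 at -2.39 and -2.16 in Control and -0.90 and -1.50 in Prmt5 KO. In exon reads both ratios were higher in each Prmt5 KO library than in each Control library, by means of 0.94 and 1.07 log2 units. In junction reads the difference for Tet2 over Tet3 was 1.19 without overlap, while Tet1 over Tet3 overlapped, at -0.20 and -1.22 in Control and 0.85 and -0.80 in Prmt5 KO. These rest on few reads, 4 to 38 junction reads of Tet2 per library. Ezh2 over Ezh1 overlapped between the groups, at 0.09 and 0.40 in Control and -0.12 and 0.20 in Prmt5 KO. Eed over Suz12 was at 0.16 in Control 1, 0.19 and 0.21 in Prmt5 KO, and apart from these at 1.24 in Control 2. Its difference of -0.50 was 0.04 without that library.

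**Figure D3:**
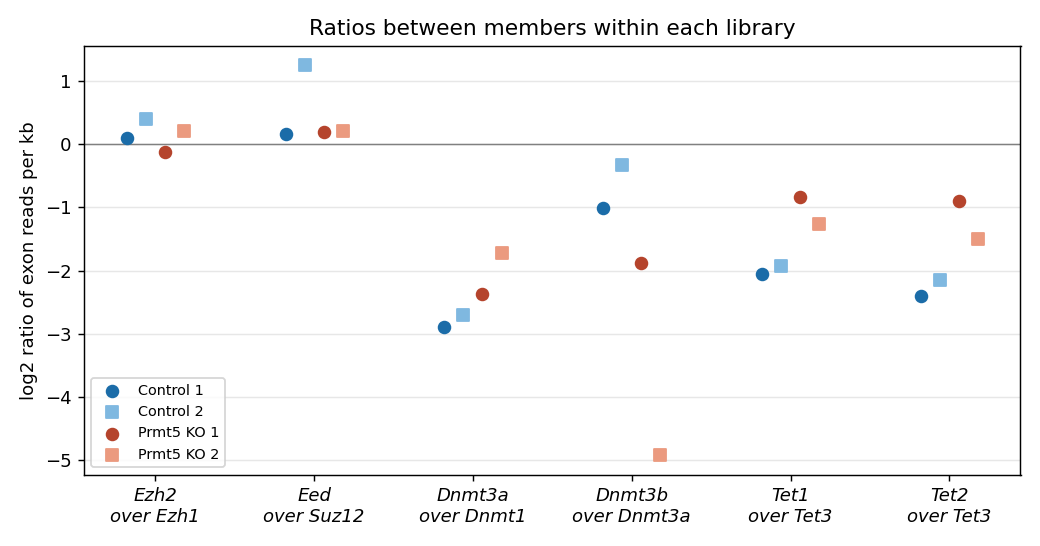
Log2 ratio of exon reads per kb between members of a family (vertical axis) in each of the 4 libraries, with 0.5 reads added to each count; circles are replicate 1 and squares replicate 2. Dnmt3a over Dnmt1, Tet1 over Tet3 and Tet2 over Tet3 were higher in both Prmt5 KO libraries than in both Control libraries and Dnmt3b over Dnmt3a was lower, while the 2 PRC2 pairs overlapped.

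Intron reads of several members made up a larger share in Prmt5 KO, in a setting where most genes did so. The intron share is unique intron reads as a percentage of unique intron and exon reads. Its median over the 7400 genes tested was 1.78% and 2.94% in Control and 6.80% and 3.90% in Prmt5 KO. For Dnmt1 it was 0.473% (13 of 2751 reads; 95% Clopper-Pearson interval 0.252 to 0.807) and 0.408% (0.150 to 0.887) in Control, and 2.83% (2.42 to 3.28) and 2.57% (1.81 to 3.52) in Prmt5 KO. Both Prmt5 KO shares lay outside the counting intervals of both Control shares.

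Suz12 had 1 and 0 intron reads beside 564 and 210 unique exon reads in Control, the 0 allowing a share of up to 1.43%. In Prmt5 KO it had 56 beside 1598 and 4 beside 365. Eed was at 6.25% (3.80 to 9.59) and 9.62% (6.32 to 13.9) in Control and at 18.5% (16.2 to 21.1) and 19.7% (14.9 to 25.2) in Prmt5 KO. Ezh1 was at 0.808% (0.263 to 1.87) and 0.545% (0.0661 to 1.95) in Control and at 5.85% (4.80 to 7.04) and 2.53% (1.16 to 4.74) in Prmt5 KO. Ezh2 was at 1.36% (0.589 to 2.66) and 2.48% (1.25 to 4.40) against 4.76% (3.72 to 5.99) and 7.47% (5.06 to 10.6). All 4 of these genes had higher shares in both Prmt5 KO libraries than in either Control library, as 39.2% of all tested genes did. For Suz12 in Prmt5 KO 2 the share, 1.08% (0.296 to 2.75), was under the limit that the count of 0 in Control 2 allows.

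Among the other members, Tet3 was also higher in both Prmt5 KO libraries, at 15.95% (13.4 to 18.7) and 23.4% (18.2 to 29.3) against 7.75% (4.80 to 11.7) and 14.3% (10.8 to 18.4). The groups overlapped for Dnmt3a, Tet1 and Tet2, with means of 4.22% ± 1.45 and 5.30% ± 0.706 for Dnmt3a, 11.2% ± 7.71 and 8.44% ± 3.37 for Tet1, and 35.1% ± 6.51 and 36.4% ± 16.9 for Tet2. Tet2 had the highest intron share of the members in every library. Dnmt3b was at 1.36% and 4.70% in Control, at 15.5% in Prmt5 KO 1 and at 0 of 11 reads in Prmt5 KO 2.

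In the test of intron against exon reads, 9 members could be tested. Dnmt3b had fewer than 20 exon reads in Prmt5 KO 2 and was not. The groups did not overlap upward for 6 of 9 and downward for 0, against 39.2% and 1.95% of all tested genes. The log2 change of intron relative to exon reads had a median of 1.48 over the members and of 1.09 over all genes, with 8 of 9 and 82.1% above 0. It was 2.63 ± 1.08 (SE) for Dnmt1 and 3.91 ± 1.73 for Suz12, each at adjusted p = 0.717 by edgeR's quasi-likelihood test, and 2.56 ± 1.33 for Ezh1 (adjusted p = 0.726), 1.74 ± 1.24 for Ezh2 (0.783) and 1.48 ± 1.28 for Eed (0.824). Counted in total instead of unique reads, the change of Suz12 was 0.05 (adjusted p = 0.994), while those of Dnmt1 and Ezh1 were 2.49 and 2.43. The value for Suz12 thus depends on leaving out reads that map to more than 1 place. This test called 0 of 7400 genes at an adjusted p under 0.05, a background of 0%, and 2 of the 9 members and 6.80% of genes had an unadjusted p under 0.05. Left out in turn, the libraries moved the median over all genes from 0.81 (without Control 1 or Prmt5 KO 1) to 1.52 (without Control 2) and that over the members from 1.15 to 1.82. Without Prmt5 KO 2 the median of the members, 1.41, was not above that of all genes, 1.43. The share of intron reads in all unique reads was 4.25% and 5.86% in Control and 8.11% and 7.11% in Prmt5 KO. It was thus higher in both Prmt5 KO libraries, as were the shares of 6 of the 9 members tested. Within groups the order was not shared by all. Ezh2, Eed and Tet3 had higher shares in Prmt5 KO 2 than in Prmt5 KO 1. The part of this library-wide share in the members' shares was not tested.

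**Figure D4:**
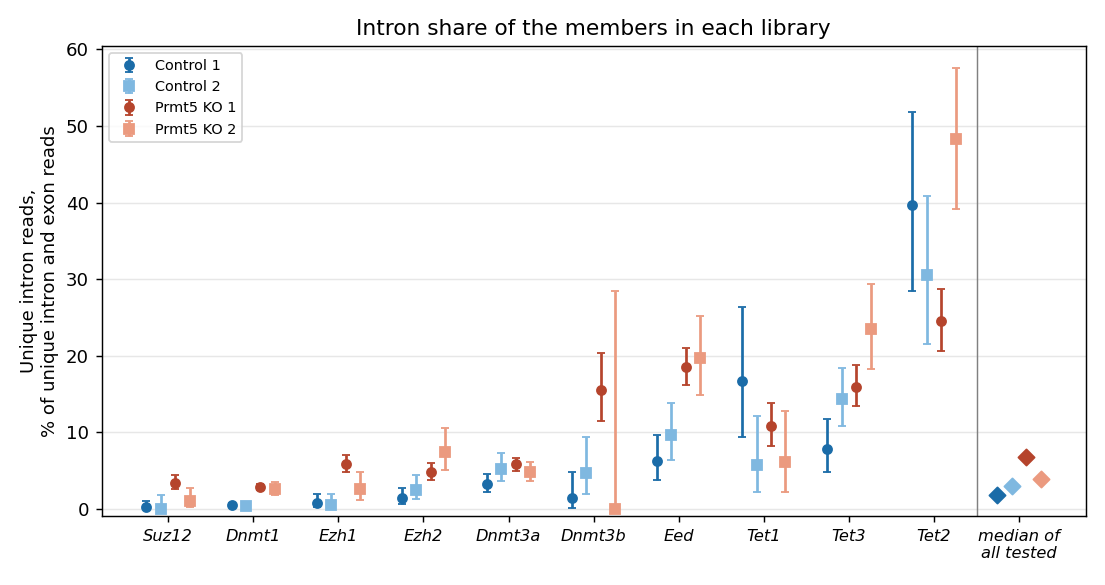
Unique intron reads as a percentage of unique intron and exon reads (vertical axis) for each gene in the 4 libraries, with 95% Clopper-Pearson intervals that cover counting error only; diamonds give the median over the 7400 tested genes. The Prmt5 KO values of Dnmt1, 2.83% and 2.57%, and of Eed, 18.5% and 19.7%, are above both Control values, as is the median over all genes, at 6.80% and 3.90% against 1.78% and 2.94%.

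The remaining genes of these pathways had no member past the threshold either, at a background of 0.00928% of genes. Of 7 tested PRC2 partners (median log2 fold change 0.09, or 0.53 without Control 1 and -0.10 without Control 2), 0 were called. The histone binders Rbbp4 and Rbbp7 had log2 fold changes of -0.12 and -0.27. Jarid2, which guides PRC2 to its targets, stood at 153 and 135 CPM in Control and at 323 and 248 CPM in Prmt5 KO, so that both Prmt5 KO libraries were higher. Its log2 fold change was 0.99 ± 0.32 (adjusted p = 0.403). Of 21 tested subunits of PRC1, the complex that ubiquitinates histone H2A, 0 were called (median 0.11, or -0.19 without Prmt5 KO 1 and 0.33 without Control 1). Phc2, Bcor and Rnf2, its most abundant genes, had log2 fold changes of 0.38, 0.64 and 0.22.

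Of 6 tested erasers of Polycomb marks, 0 were called, with a median of 0.65 that was 0.23 without Prmt5 KO 1 and 0.42 without Control 2. Bap1, a deubiquitinase of histone H2A, stood at 158 and 123 CPM in Control and at 217 and 224 CPM in Prmt5 KO (log2 fold change 0.65 ± 0.31, adjusted p = 0.616). Asxl1, its partner, and Usp16 had log2 fold changes of -0.02 and 0.64. In the list of DNMT1 recruitment and methyl-CpG readers 0 of 10 tested were called, with a median of -0.13 that turned positive without Control 1 (0.34) or Prmt5 KO 2 (0.13) and was -0.45 without Prmt5 KO 1. Uhrf1, which brings DNMT1 to newly made DNA, stood at 236 and 217 CPM in Control and at 263 and 168 CPM in Prmt5 KO, and the binders Mbd2 and Mbd3 had log2 fold changes of 0.31 and 0.49. Among TET partners and base excision genes 0 of 13 tested were called (median -0.22, or -0.56 with Prmt5 KO 1 left out, turning to 0.24 without Control 1 and 0.06 without Prmt5 KO 2). Ogt, Apex1 and Tdg, the glycosylase that removes oxidised methylcytosine, had log2 fold changes of -0.22, -0.33 and 0.52.

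Genes that PRC2 keeps silent in most adult tissues had few reads in either group. Of 41 such developmental genes and cell-cycle inhibitors, 16 had 0 exon reads in all libraries, none passed the filter, and their summed level was 4.06 and 5.39 CPM in Control and 4.53 and 5.50 in Prmt5 KO. The sums overlapped, from 23, 23, 67 and 28 reads in all. In the list of germline genes silenced by DNA methylation and imprinted genes, 11 of 26 had 0 reads throughout and 6 passed the filter. All 6 are imprinted genes, so the values below do not describe the germline genes of the list. Of the 6 tested, 0 were called, with a median log2 fold change of 1.31 (0.79 without Prmt5 KO 2 and 2.08 without Control 2). The imprinted receptor gene Igf2r stood at 82.2 and 116 CPM in Control and at 305 and 314 CPM in Prmt5 KO, with no overlap (log2 fold change 1.64 ± 0.33, adjusted p = 0.139; DESeq2 called it). H19, an imprinted long non-coding RNA, stood at 13.1 and 36.5 CPM in Control and at 45.8 and 104 CPM in Prmt5 KO (1.60 ± 0.58, adjusted p = 0.462), and Igf2 had a log2 fold change of 1.02. Igf2r is overlapped by the antisense transcript Airn, and reads of such partners cannot be told apart where counting is not stated to use strand. The reads counted for Airn had a log2 fold change of -0.28 ± 1.42 (SE; adjusted p = 0.990, edgeR's quasi-likelihood test), with overlapping groups. Its part in the reads of Igf2r was not tested. The files hold no allele or methylation measurement.

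Of 8 tested iNKT cell regulators and cytokines described under loss of Ezh2 or of Tet2 and Tet3, 0 were called. Their median log2 fold change was -0.0047, or 0.14 without Control 1 and -0.17 without Control 2. Zbtb16, which encodes PLZF, stood at 189 and 145 CPM in Control and at 349 and 252 CPM in Prmt5 KO (log2 fold change 0.85 ± 0.34, adjusted p = 0.50), higher in both Prmt5 KO libraries. Gata3 and Lef1 had log2 fold changes of 0.15 and 1.64.

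Proliferation genes are given because dividing cells use Dnmt1 and Ezh2. Of 22 tested, 0 were called, 19 had a negative log2 fold change, and the median was -0.46, or -0.18 with 14 negative without Prmt5 KO 2. Their summed level was 5831 and 6287 CPM in Control and 5178 and 4733 in Prmt5 KO, lower in both Prmt5 KO libraries. The most abundant, the replication helicase genes Mcm6, Mcm5 and Mcm3, had log2 fold changes of -0.36, 0.09 and 0.26. The part of proliferation in the levels of Dnmt1 and Ezh2 was not tested.

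**Figure D5:**
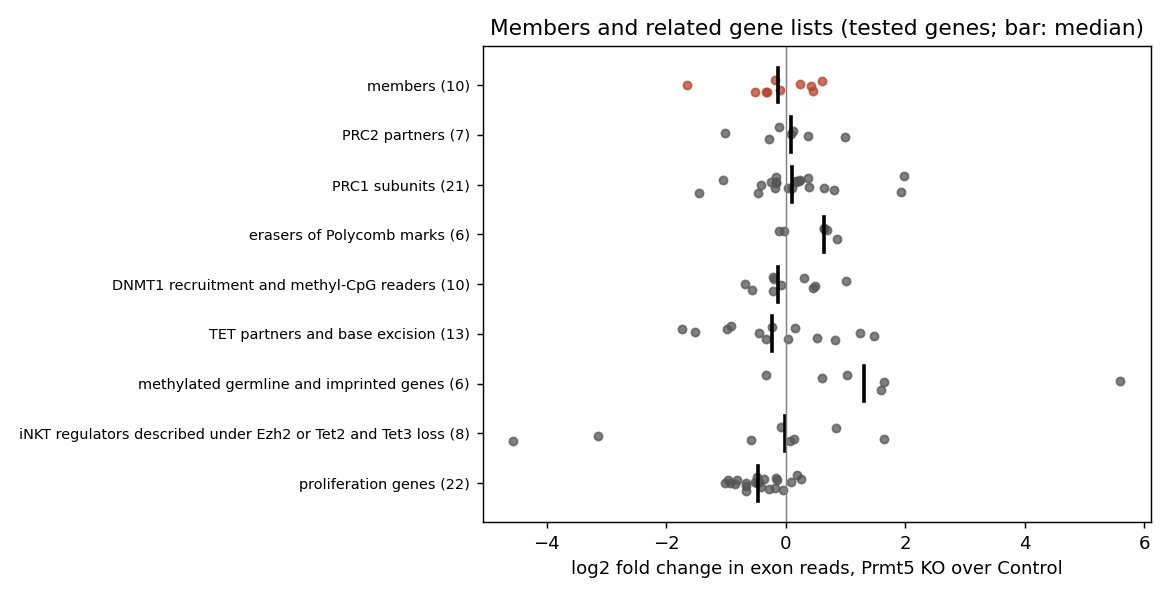
Log2 fold change in exon reads, Prmt5 KO over Control (horizontal axis), for each tested gene of the members and of 8 related lists, with the number tested in parentheses and the median as a bar. The members have a median of -0.13 and the proliferation genes one of -0.46; no gene shown passed the threshold.

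Genes whose profile over the 4 libraries was most like a member were ranked by the Euclidean distance of centred log2 CPM among 9421 genes. Nearest to Ezh2 were Me2, Mthfd2 and Gdf11, at distances of 0.0433, 0.0489 and 0.0603. Nearest to Dnmt1 were Nelfcd, Zswim1 and Gbp9, at 0.0367, 0.0508 and 0.0735, and nearest to Tet3 were Nudt9, Zfp687 and Brcc3, at 0.0437, 0.0571 and 0.0661. With 4 libraries and so many genes, such close profiles are a description only.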

How the data were processed

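RNA of 4 libraries of stage 1 thymic iNKT cells, 2 Control and 2 Prmt5 KO by their titles, was made into cDNA with a SMART-seq v4 kit, per the labels. The authors deposited raw read counts per gene (exon, intron, junction and gene reads, unique and total) for 46517 genes, from single trimmed reads per the file headers. Per the submitters' processing notes the build was mm10 and edgeR was among the tools. The sources used here name no mapper, annotation or strandedness. The exon length (another deposited value) is in bases, and printed starts have 1 added.

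Total exon reads were filtered with filterByExpr, TMM-scaled and tested on group alone over the whole table with the two-sided quasi-likelihood test in edgeR 4.0.16, run under R 4.3.3. Adjusted p-values are Benjamini-Hochberg values and count as called under 0.05. Standard errors were taken as the size of the log2 coefficient divided by the square root of its F statistic. The intron test set unique intron against unique exon reads, blocking on library, where a gene had 20 or more exon reads in each library and 10 or more intron reads in all. Total in place of unique reads was an alternative. Scripts were tested on simulated data. DESeq2 1.42.0 and limma 3.58.1 (voom), other scalings, no filter, other read columns, a replicate block and leaving out each library were alternatives; junction reads were added after the data were seen. Depth was 4600799 to 13240293 exon reads. The members and lists were chosen with earlier results of these data known. Besides the members and Prmt5, the rule named list genes past the threshold, the 3 most abundant tested genes of each list and the 3 nearest profiles of Ezh2, Dnmt1 and Tet3 among genes averaging 5 CPM or more. Of the 40 marker and 161 list genes, Trgv4, Epop and Ezhip had no row under these symbols.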

Additional observations from a re-analysis of the deposited data

How the results depend on the processing

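Of 129 alternative fits of members in exon reads, 0 brought a member past the threshold and 6 turned a sign. Ezh1 turned to 0.014 with library size only and ranged from -0.50 to 0.23 with 1 library left out, turning without Control 1 (0.12) and without Prmt5 KO 2. So ranged Eed, from -0.46 to 0.078, turning without Prmt5 KO 2, and Suz12, from -0.17 to 0.87, turning without Control 2 and without Prmt5 KO 1 (-0.058). Library size only moved the median of all genes to 0.09. The lowest adjusted p of Dnmt3b, 0.0757, came from the replicate block. In the intron test Tet1 ranged from -1.13 to 0.57, turning without Control 1 and without Prmt5 KO 2 (0.087), and Tet2 from -0.73 to 0.80, turning without Prmt5 KO 2 and without Control 2 (-0.27). With total intron and exon reads Suz12 went from 3.91 to 0.05.

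Over all genes, higher and lower calls numbered 0 and 1 in the exon test. They were 110 and 105 without a filter, 93 and 75 with DESeq2, 1 and 12 with limma-voom, 5 and 10 with total gene reads and 180 and 182 with the replicate block. With 1 library left out they ranged from 0 to 13 higher and from 1 to 24 lower, and intron calls from 0 to 1 higher; a group's lone library is then assumed to vary like the other group. The block called Jarid2, H19, Igf2r and Lef1 higher among the list genes named. DESeq2 called Igf2r and Lef1, and the fit without a filter H19, Igf2r and Lef1. Libraries with the same number share no stated origin. Their deviations from the group means correlated at 0.18 over genes, and with 2 pairs this does not establish pairing. The cause of these differences between settings was not tested.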
